A study of Mus musculus with 12 samples.

Results

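Glutathione S-transferases are a family of liver enzymes, and the transcripts of 10 of them, chosen by name from the deposited table, are described here. They were 5 of the mu class (Gstm1, Gstm2, Gstm3, Gstm4 and Gstm6), 3 of the alpha class (Gsta2, Gsta3 and Gsta4), Gstp1 of the pi class and Gstt1 of the theta class. The table listed 48526 genes, of which 11968 passed the authors' filter on low values (over 1 CPM, the count scaled to the library's total, in at least 6 livers), and all 10 transferases were among these. RNA was sequenced from the livers of C57BL/6J mice, an inbred strain, in 4 groups of 3 livers: females on chow, females on chow with simvastatin, males on chow and males on chow with simvastatin. The mice were 8 to 10 weeks old when the diets began and stayed on them for 4 weeks. Simvastatin, which blocks HMG-CoA reductase in the synthesis of cholesterol, was given at 0.1 g per kg, of body weight by the sample labels and of food by the study's methods. No transgene or deletion was used, and no group was given a second agent.

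These enzymes join the tripeptide glutathione to reactive compounds, made within the cell or taken in as drugs and toxins, which makes them soluble and ready for export. The cytosolic enzymes work as dimers and are sorted into classes by sequence, each class with a broad and partly shared range of substrates. In rodents several of them are known to differ between the sexes and to be induced through the transcription factor Nrf2, which binds antioxidant response elements, and through the nuclear receptor CAR.

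The libraries held between 46066381 and 60419223 counts each in the deposited tables. The study's methods state a lower average number of reads, and this difference was not resolved. At the deposited totals 3 counts, taken as the lowest level told from 0, come to at most 0.0651 CPM. Hepatocyte markers dominated every liver, with a summed level of 72270 to 153100 CPM over 5 markers, and the 6 lymphocyte markers summed to at most 6.9 CPM. Kupffer cell markers, of the resident macrophages, summed to 506 to 612 CPM in female chow livers and 260.2 to 399.9 CPM in male chow livers, and 3 of 7 were called between the sexes on chow. Pericentral hepatocyte markers summed to 4655 to 5868 CPM in female chow livers and 10150 to 12000 CPM in male chow livers. Stellate cell markers summed to 317 to 365 CPM in female chow livers and 200.7 to 212 CPM in male chow livers. In whole liver, fewer cells of a type and less RNA per cell cannot be told apart.

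The 5 mu genes lay in 1 cluster on chromosome 3, all on the minus strand (GRCm38 coordinates, GENCODE vM21): Gstm6 at chr3:107938847-107943749, Gstm3 at chr3:107963696-107969283, Gstm2 at chr3:107981702-107986453, Gstm1 at chr3:108012255-108017973 and Gstm4 at chr3:108040408-108044894. Gsta4 (chr9:78182774-78209349, plus strand) and Gsta2 (chr9:78331018-78355788, minus strand) were on chromosome 9. Gsta3 (chr1:21240589-21265661, plus strand), Gstp1 (chr19:4035407-4037985, minus strand) and Gstt1 (chr10:75783813-75798584, minus strand) were each on a chromosome of their own. The transcripts used here had 8 exons for each mu gene, 7 for the alpha and pi genes and 5 for Gstt1.

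The mu genes are close copies, which bears on how reads could be told apart between them. Coding sequences of the 10 mu pairs were 79.1% to 89.5% identical (median 83.7%), against 46.4% to 52.8% between classes. The first 60 coding bases, from the start codon on, are shown for each mu gene from the GENCODE vM21 transcripts, with bases that differ from Gstm1 in capitals.
Gstm1: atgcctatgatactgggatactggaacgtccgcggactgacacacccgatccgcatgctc
Gstm2: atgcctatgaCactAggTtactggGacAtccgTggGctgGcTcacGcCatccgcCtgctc
Gstm3: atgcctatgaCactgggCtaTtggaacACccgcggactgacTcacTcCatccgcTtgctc
Gstm4: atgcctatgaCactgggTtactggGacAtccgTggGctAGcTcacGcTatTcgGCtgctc
Gstm6: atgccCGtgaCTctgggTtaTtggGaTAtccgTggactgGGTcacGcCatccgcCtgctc
Gstm3 differed from Gstm1 at 9 of these bases and Gstm6 at 16. Reads were 50 bases from each end of a fragment. Of all stretches of 50 bases in the transcript, 23.1% were found in another gene for Gstm1, 28.8% for Gstm3, 11.8% for Gstm6 and 9.4% for Gstm2, and 0 for Gstm4, Gsta3, Gsta4 and Gstt1.

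Gstp1 and Gsta2 shared most, and their counts are uncertain where a read fits a near-identical copy. For Gstp1 62.3% of the stretches also occurred in Gstp2 or the pseudogene Gstp-ps, and for Gsta2 64.2% also occurred in Gsta1, Gm10639 or Gm3776. Gstp1 and Gstp2 were 98.1% identical over the coding sequence, and their first 60 coding bases are shown with the differences in capitals.
Gstp1: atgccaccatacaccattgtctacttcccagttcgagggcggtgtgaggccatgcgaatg
Gstp2: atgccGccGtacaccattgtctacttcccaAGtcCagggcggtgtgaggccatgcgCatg
Gstp2 had at most 2.15 CPM in any liver and Gsta1 at most 0.827 CPM. How the authors' counting treated reads that fit more than 1 gene is not given in the sources used here. Gsta3 overlapped the antisense gene Gm28836, which had at most 0.058 CPM.

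The first question was how the transferases differed between untreated females and males. On chow, 3 of the 5 mu genes were higher in females, the alpha gene Gsta4 was higher, and Gsta3 and Gstp1 were lower. That is 6 of 10 called at an adjusted p under 0.05 (edgeR's quasi-likelihood test, Benjamini-Hochberg adjustment over the 11968 genes), where 10.4% of all genes were called, 5.96% higher and 4.49% lower in females. Of all genes called, 57.0% were higher in females with TMM scaling and 46.4% with library size alone. The female and male chow livers did not overlap for 9 of the 10 transferases, against 37.7% of all genes. The median log2 fold change of the 10 was 0.55, and of all genes -0.01.

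Gstm3 showed the widest sex difference among the 10. Its levels, as CPM scaled by edgeR's TMM factors, were 111, 98.2 and 118 in the female chow livers and 25.1, 17.5 and 16.5 in the male chow livers. The lowest female chow liver was above the highest male one, and Gstm3 was 5.53-fold higher in females (log2 fold change 2.47, SE 0.41, adjusted p = 0.00288, edgeR). Gstm2, which is strongly expressed in rodent liver, had 189, 185 and 142 CPM in females and 65.3, 53.0 and 53.2 CPM in males. Its groups did not overlap either, and the female level was 3.02-fold higher (log2 fold change 1.59, SE 0.26, adjusted p = 0.002351, edgeR). Gstm4 was 1.93-fold higher in females (log2 fold change 0.95, SE 0.21, adjusted p = 0.0151, edgeR), with 73.2, 68.4 and 67.6 CPM against 42.7, 38.2 and 27.4 CPM.

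Gstm1, the most abundant mu transcript, had 1207, 1103 and 1244 CPM in female chow livers and 795, 866 and 756 CPM in male chow livers. These did not overlap, but the difference missed the threshold over all genes (log2 fold change 0.56, SE 0.20, adjusted p = 0.1079, edgeR). Gstm6 had 98.5, 99.4 and 91.1 CPM in females and 79.2, 68.8 and 51.1 CPM in males (log2 fold change 0.54, SE 0.28, adjusted p = 0.269, edgeR). In both genes every female chow liver was above every male one.

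The alpha and pi genes took different directions. Gsta3, known in mice for its activity toward the epoxide of aflatoxin, had 807, 1037 and 1160 CPM in female chow livers and 1902, 1675 and 1463 CPM in male ones. All male livers were higher, and the female level was 1.68-fold lower (log2 fold change -0.75, SE 0.21, adjusted p = 0.0398, edgeR). Gsta4, which acts on aldehydes from oxidized lipids, was instead 1.48-fold higher in females (log2 fold change 0.57, SE 0.15, adjusted p = 0.0327, edgeR), at 25.3, 32.1 and 35.9 CPM against 21.4, 20.1 and 21.4 CPM. The lowest female liver was above the highest male one.

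Gstp1, the pi enzyme, had the largest difference among the male-high transcripts. It had 132, 182 and 159.7 CPM in female chow livers and 416, 519 and 502 CPM in male chow livers. Females were 3.03-fold lower (log2 fold change -1.60, SE 0.21, adjusted p = 0.0004556, edgeR), with no overlap. Gsta2 was the rarest of the 10, at 1.68, 1.67 and 5.03 CPM in females and 5.28, 5.98 and 6.56 CPM in males. Its highest female liver was close to the males, and the difference missed the threshold (log2 fold change -1.09, SE 0.36, adjusted p = 0.0775, edgeR). DESeq2, limma-voom, limma on log2(CPM + 1) or log2(CPM + 0.1), and edgeR with no filter called Gsta2, and over all alternatives its adjusted p ran from 0.00081 to 0.2325. Without female chow replicate 3 its log2 fold change was -1.83, and edgeR called it. Gstt1, a theta enzyme that acts on small halogenated compounds, had 268.9 to 315 CPM in females and 267 to 324 CPM in males and overlapped (log2 fold change 0.02, SE 0.18, adjusted p = 0.955, edgeR).

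Gstm2, Gstm3 and Gstp1 were called in each of 12 fits that left out 1 liver. Gstm4 was called in 9 of these fits, Gsta4 in 7 and Gsta3 in 6. Over them the log2 fold change ran from 0.79 to 1.09 for Gstm4, from 0.45 to 0.69 for Gsta4 and from -0.87 to -0.62 for Gsta3. Gsta4 was not called with library size alone, nor Gsta3 when a mean of at least 10 CPM was required. Neither was called with the replicate number as a block. Without female chow replicate 2 or without male chow replicate 3 only 3 of the 10 were called. Kupffer cell, stellate cell and pericentral marker sums also differed between the sexes as given above, though only 1 of the 8 pericentral and 2 of the 7 stellate markers were called. Endothelial markers summed to 312 to 350.0 CPM in female chow livers and 214 to 295 CPM in male ones, and erythroid markers to 169 to 192 CPM and 226 to 239 CPM, although the median log2 fold change of the 5 erythroid markers was 0.19, higher in females. Of 7 periportal markers 3 were called, and their sums overlapped. The part of these markers in the sex differences was not tested.

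**Figure D1:**
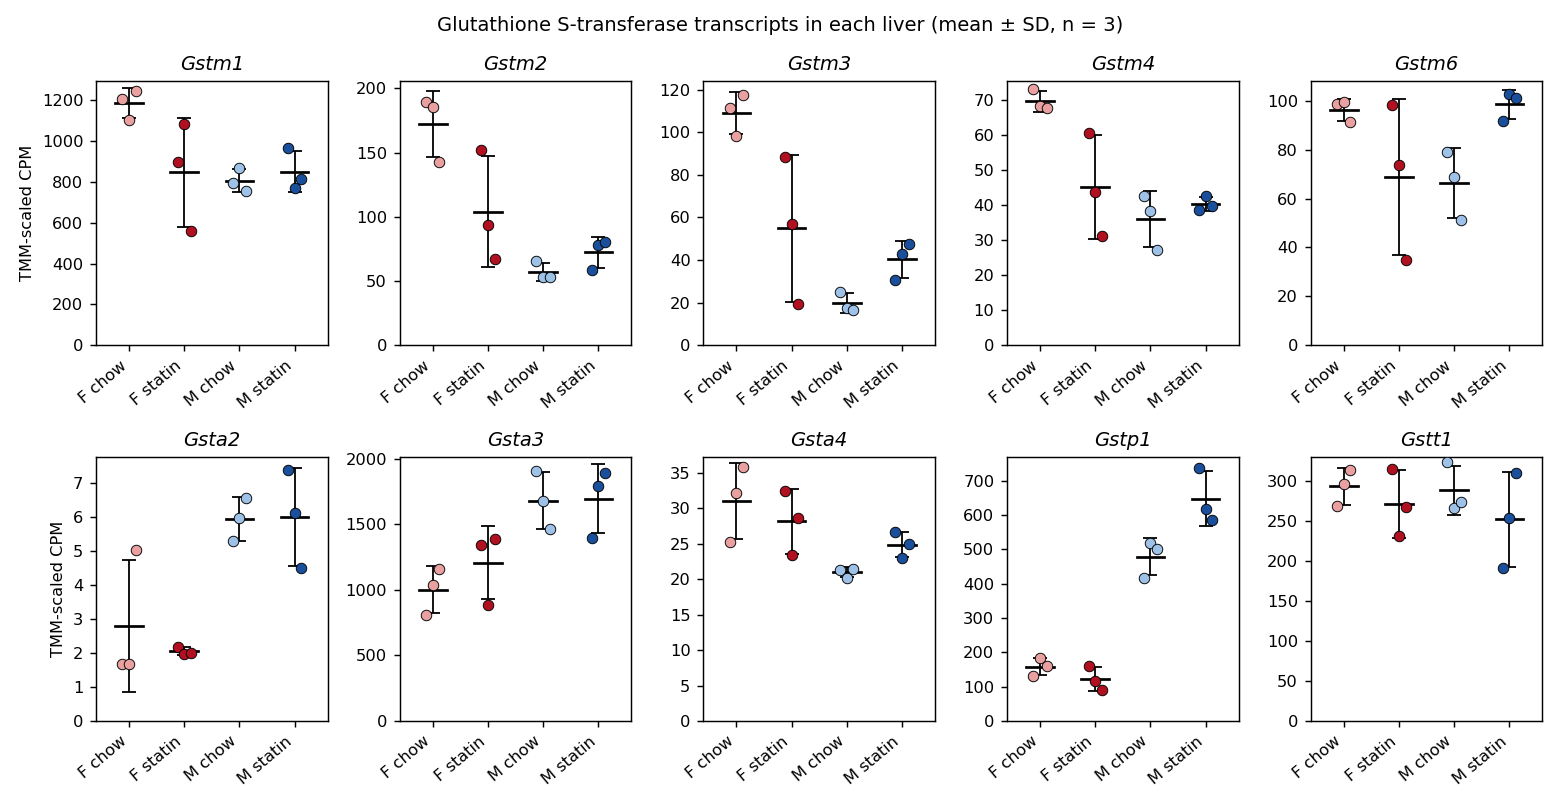
Levels of the 10 transferase transcripts, as TMM-scaled CPM on a linear axis that starts at 0, in female (F) and male (M) livers on chow or statin. Points are livers, bars the mean and whiskers the SD of 3 livers; Gstm3 is highest in the female chow livers (98.2 to 118 CPM) and Gstp1 in the male statin livers (586 to 737 CPM).

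The second question was what statin did in females. None of the 10 transferases passed the threshold (0 called by edgeR, DESeq2, limma-voom or limma on log2 CPM), where 0.1% of all genes did. At an unadjusted p under 0.05 there were 4, Gstm1, Gstm2, Gstm3 and Gstm4, all lower with statin, against 10.5% of all genes. The median log2 fold change was -0.62 over the mu genes and -0.46 over the 10, against 0.01 over all genes. For 3 of the 10 (Gstm1, Gstm3 and Gstm4) every statin liver was below every chow liver; 12% of all genes had groups that did not overlap.

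Gstm3 had 88.5, 57.0 and 19.2 CPM in the 3 female statin livers. The lowest was within the male chow range, and the highest was close to the lowest female chow liver (log2 fold change -0.99, SE 0.40, unadjusted p = 0.0278, adjusted p = 0.3918, edgeR). Gstm2 had 152, 93.6 and 66.9 CPM with statin (log2 fold change -0.73, SE 0.25, adjusted p = 0.3125, edgeR). Its first statin liver overlapped the chow livers and the other two lay below.

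The lowest statin liver was the same in the other mu genes. Gstm4 had 60.7, 43.8 and 31.3 CPM with statin, all below the female chow livers (log2 fold change -0.62, SE 0.21, adjusted p = 0.3063, edgeR). Gstm1 had 896, 1084 and 559.5 CPM (log2 fold change -0.49, SE 0.20, adjusted p = 0.4234, edgeR), and Gstm6 had 98.1, 73.6 and 34.8 CPM (log2 fold change -0.49, SE 0.28, adjusted p = 0.6365, edgeR). Female statin replicate 3 was the lowest of the 6 female livers for all 5 mu genes and for 6 of the 10 transferases, as it was for 16.2% of all genes. The spread among the female statin livers was accordingly wide: the SD was 31.4% of the mean for Gstm1 and 63.1% for Gstm3, where the median over all genes was 19.5%.

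Without female statin replicate 3 the log2 fold changes in females were -0.24 for Gstm1, -0.48 for Gstm2, -0.57 for Gstm3, -0.40 for Gstm4 and -0.15 for Gstm6. Each was smaller in size than with all livers. Without female statin replicate 1 they were larger for Gstm2 (-1.09), Gstm3 (-1.50), Gstm4 (-0.88) and Gstm6 (-0.82), with adjusted p from 0.0514 to 0.2126 (edgeR), and without replicate 2 that of Gstm1 was -0.70 (adjusted p = 0.135, edgeR). All these estimates kept their sign. In replicate 3 Kupffer cell markers summed to 440.0 CPM, stellate cell markers to 230.3 CPM and cholangiocyte markers to 19.0 CPM, each the lowest of the 6 female livers. Pericentral markers summed to 8644 CPM and erythroid markers to 282.8 CPM there, each the highest of the 6. Across the groups, pericentral markers summed to 6746 to 8644 CPM in female statin livers and lymphocyte markers to 4.94 to 6.90 CPM, all above the female chow livers (4655 to 5868 and 2.08 to 3.46 CPM). Of the 8 pericentral markers 0 were called with statin in females, and 0 of the 6 lymphocyte markers passed the filter on low values. The part of these marker sums in the mu levels was not tested.

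The remaining transferases of statin-treated females overlapped the chow livers. Gstp1 had 158.9, 116 and 91.4 CPM (log2 fold change -0.37, SE 0.20, adjusted p = 0.5852, edgeR). Gsta3 had 1341, 887 and 1390 CPM (log2 fold change 0.27, SE 0.21, adjusted p = 0.7782, edgeR). Gsta2 lay between 1.96 and 2.19 CPM, Gsta4 between 23.4 and 32.5 CPM and Gstt1 between 231 and 316 CPM, with adjusted p from 0.8091 to 0.9452 (edgeR).

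In males none of the 10 passed the threshold either (0 by edgeR, DESeq2, limma-voom or limma on log2 CPM), and of all genes 0 (0%) did by edgeR and 4 by DESeq2. Gstm3 was the only one at an unadjusted p under 0.05, against 1.96% of all genes. For 4 of the 10 (Gstm3, Gstm6, Gsta4 and Gstp1) every statin liver was above every chow liver, against 7.95% of all genes with groups that did not overlap in either direction. The median log2 fold change of the 10 was 0.20, and over all genes 0.00.

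Gstm3 had 30.7, 42.9 and 47.6 CPM in the male statin livers, all above the male chow livers at 16.5 to 25.1 CPM. The level was 2.05-fold that on chow (log2 fold change 1.04, SE 0.40, unadjusted p = 0.023, adjusted p = 0.9998, edgeR). It was still below every female chow liver. Gstp1 had 737, 618 and 586 CPM with statin, the highest levels of the 4 groups (log2 fold change 0.43, SE 0.20, unadjusted p = 0.0515, adjusted p = 0.9998, edgeR). Gstm6 had 91.8, 103 and 101 CPM (log2 fold change 0.57, SE 0.28, unadjusted p = 0.0669, adjusted p = 0.9998, edgeR), a range that overlapped the female chow livers. Gsta4 had 26.7, 23.0 and 24.9 CPM (log2 fold change 0.25, SE 0.15, adjusted p = 0.9998, edgeR).

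The other 6 transferases overlapped between male chow and male statin livers. Gstm1 lay between 770.1 and 963 CPM with statin, Gstm2 between 58.3 and 80.3 CPM and Gstm4 between 38.7 and 42.6 CPM, with log2 fold changes of 0.08, 0.34 and 0.16. Gsta2 lay between 4.51 and 7.37 CPM and Gsta3 between 1394 and 1893 CPM, with log2 fold changes of 0.02 and 0.01. Gstt1 lay between 192 and 311 CPM (log2 fold change -0.19, SE 0.18, adjusted p = 0.9998, edgeR).

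**Figure D2:**
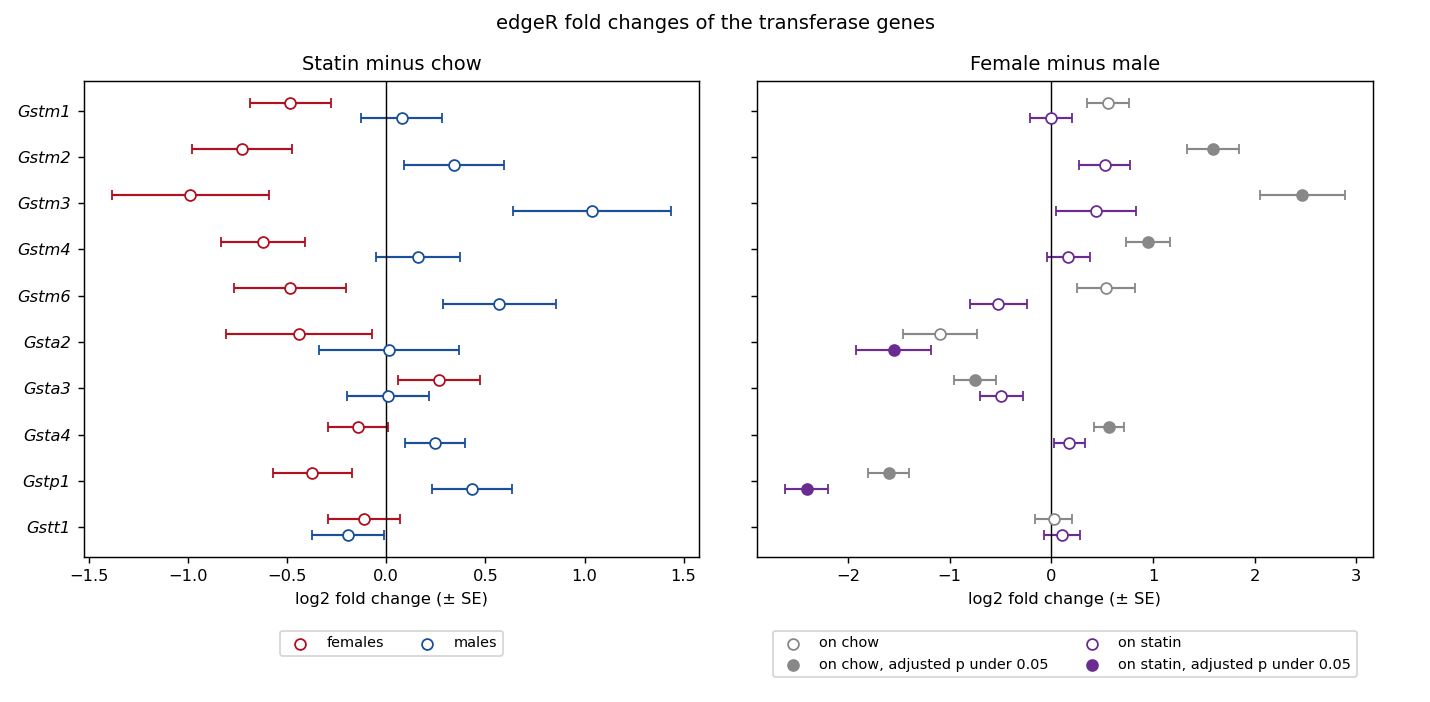
Log2 fold changes with their SE from edgeR for the 10 transferases, for statin minus chow (left) and female minus male (right). Filled points have an adjusted p under 0.05; no statin point is filled, and Gstm3 is at -0.99 in females and 1.04 in males.

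The third question was whether females and males responded differently to statin. No transferase passed the threshold for the interaction (edgeR), and of all genes 0 (0%) did, against 122 by DESeq2. At an unadjusted p under 0.05 there were 5, against 8.01% of all genes: Gstm2, Gstm3, Gstm4, Gstm6 and Gstp1, each with a lower response in females. Gstm3 had the largest difference of responses (female minus male, log2 scale, -2.03, SE 0.56, unadjusted p = 0.00355, adjusted p = 0.3192, edgeR). DESeq2 called it (adjusted p = 0.0326), as did edgeR with no filter on low counts (adjusted p = 0.0102). Over its alternatives the adjusted p of Gstm3 ran from 0.0102 to 0.7085. The differences of responses were -1.07 for Gstm2 (SE 0.36, adjusted p = 0.4273), -1.06 for Gstm6 (SE 0.40, adjusted p = 0.4935), -0.78 for Gstm4 (SE 0.30, adjusted p = 0.5003) and -0.81 for Gstp1 (SE 0.29, adjusted p = 0.4586), all by edgeR. For Gstm1, the alpha genes and Gstt1 they ran from -0.56 to 0.26 with unadjusted p from 0.0754 up (edgeR).

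The fourth comparison was between females and males that both received statin. Gstp1 and Gsta2 were lower in females, and none of the mu genes passed the threshold. These 2 of 10 stood against 6.28% of all genes called and 1.9% called lower in females. Of all genes called, 69.8% were higher in females with TMM scaling and 52.0% with library size alone. Gstp1 was 5.30-fold lower in females (log2 fold change -2.41, SE 0.21, adjusted p = 1.76e-05, edgeR), the highest female statin liver at 158.9 CPM and the lowest male one at 586 CPM. Gsta2 was 2.92-fold lower (log2 fold change -1.55, SE 0.37, adjusted p = 0.0268, edgeR), the 3 female livers at 2.19, 1.96 and 2.00 CPM and the 3 male livers at 7.37, 6.12 and 4.51 CPM. Gstp1 was called in each of the 12 fits without 1 liver, Gsta2 in 7 of them. Kupffer cell markers summed to 440.0 to 745 CPM in female statin livers and 264 to 326 CPM in male ones, and 5 of 7 were called. Hepatocyte (113200 to 153100 against 76320 to 88230 CPM), periportal (3569 to 3928 against 4470 to 6307 CPM) and lymphocyte sums (4.94 to 6.90 against 2.23 to 4.55 CPM) did not overlap either. Of these, 1 of the 7 periportal markers was called, no hepatocyte marker was, and no lymphocyte marker passed the filter. The part of these markers in the differences was not tested.

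For 3 of the 10 (Gstp1, Gsta2 and Gsta3) the female and male statin livers did not overlap, against 19.6% of all genes. Gsta3 had log2 fold change -0.49 (SE 0.21, adjusted p = 0.2112, edgeR), and it was called with the correction for transcript length (adjusted p = 0.045). All 5 mu genes overlapped between the sexes, with log2 fold changes from -0.52 for Gstm6 to 0.53 for Gstm2 and adjusted p of at least 0.2855 (edgeR). That of Gstm3 was 0.44 (SE 0.39, adjusted p = 0.6278). Loss of a call on statin does not show that the sex difference changed; the test of that change is the interaction above.

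Counts were also compared as composition. Each level was divided by the length of its transcript (CPM per kilobase), and each class was taken as a share of the sum over the 10. The sum was 2486 ± 158 CPM per kilobase in females on chow and 2152 ± 293 with statin, and 2815 ± 173 in males on chow and 3093 ± 98.4 with statin (mean ± SD, n = 3). The mu class made up 52.0% ± 4.3 of it in female chow livers and 27.4% ± 0.80 in male chow livers. Statin-treated females were at 40.7% ± 11.2 and statin-treated males at 28.1% ± 2.4. The 3 female statin livers differed most among themselves, at 41.4%, 51.5% and 29.3%.

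The pi class, Gstp1 alone, made up 7.73% ± 1.1 of the sum in females on chow and 6.82% ± 1.0 with statin, and 20.8% ± 3.2 in males on chow and 25.6% ± 3.9 with statin. The alpha class, nearly all Gsta3, made up 28.9% ± 3.5, 40.3% ± 10.4, 41.9% ± 3.1 and 38.5% ± 4.8 in the same order. Gstt1 made up 11.4%, 12.2%, 9.90% and 7.84%. Per kilobase, Gstm1 had the highest mean of the 10 in female chow livers (919 ± 56.6) and Gsta3 in the other 3 groups (828 ± 190.4, 1153 ± 151 and 1162 ± 181). In female statin livers that lead of Gsta3 over Gstm1, at 657 ± 206, was within the SD. The shares within a liver depend on each other, since they sum to the whole.

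**Figure D3:**
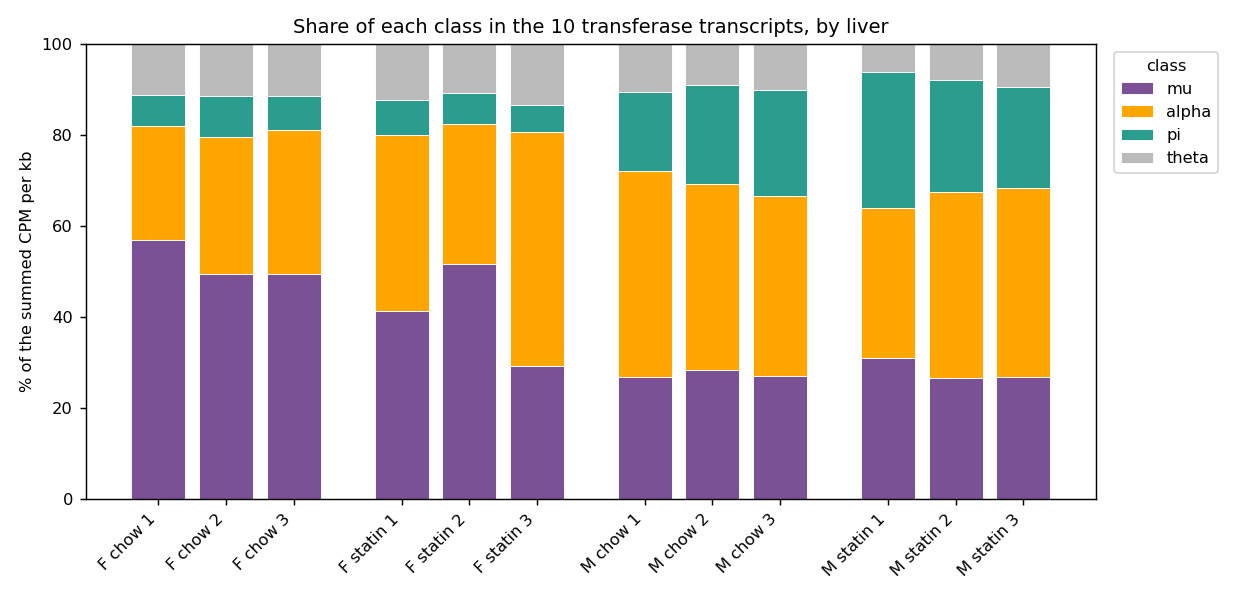
Share of each class in the summed CPM per kilobase of the 10 transferases, in percent, with 1 bar for each liver; colours mark the mu, alpha, pi and theta classes. The mu share is 49.4% to 57.0% in female chow livers and 26.9% to 28.3% in male chow livers, and it runs from 29.3% to 51.5% in female statin livers.

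Across the 4 groups, Gstm1, Gstm2, Gstm3, Gstm4, Gsta4 and Gstt1 had their highest mean in female chow livers. Of these, the female chow livers stood wholly above the group with the next mean for Gstm1, Gstm3 and Gstm4, and overlapped it for Gstm2, Gsta4 and Gstt1. Gstm6, Gsta2, Gsta3 and Gstp1 had their highest mean in male statin livers, and only for Gstp1 did that group stand wholly above the next, male chow. Male chow livers had the lowest mean for all 5 mu genes and for Gsta4. They stood wholly below the next group for Gstm3 and Gsta4, and overlapped it for the other 4.

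The mu cluster on chr3:107895821-108044894 held 7 mu genes that were tested, Gstm5 and Gstm7 besides the 5 above. On chow 5 of the 7 were called higher in females, against 5.96% of all genes, with a median log2 fold change of 0.95 and a range from 0.54 to 2.47. Gstm5 had a log2 fold change of 1.00 (SE 0.23, adjusted p = 0.0159) and Gstm7 of 0.66 (SE 0.18, adjusted p = 0.039, edgeR). Of 14 other tested genes within 500000 bases on each side, 2 were called, Gnai3 at 0.40 higher and Sort1 at -1.64 lower, and the median was 0.04. On statin none of the 7 mu genes was called, and their median was 0.17. In females the median log2 fold change with statin was -0.49 over the 7 mu genes and -0.06 over the 14 others.

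**Figure D4:**
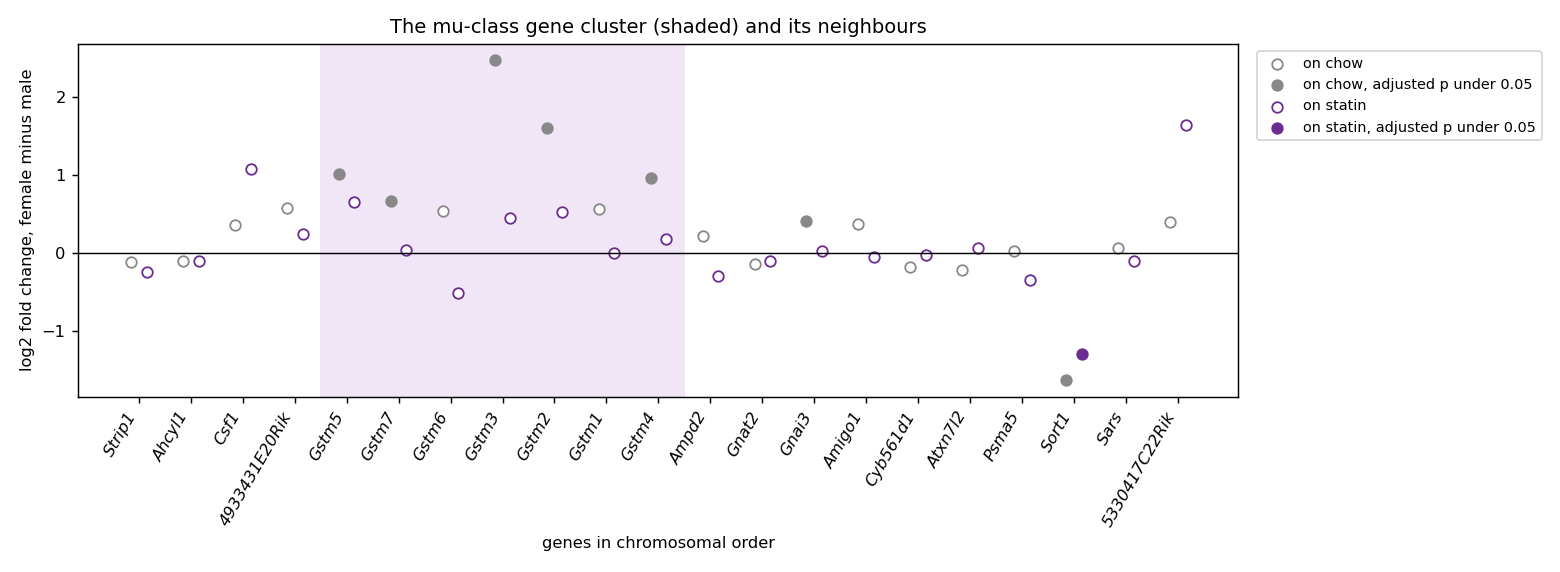
Log2 fold change, female minus male, on chow (grey) and on statin (purple) for the tested genes of the mu cluster (shaded) and those within 500000 bases of it, in chromosomal order and not to scale. Filled points have an adjusted p under 0.05; on chow 5 of the 7 mu genes are filled, and on statin none.

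The wider family was counted from a list of 24 further transferase genes, of which 13 were tested. None was called with statin in females or males (0 by edgeR, DESeq2 or limma-voom), and 2 of the 13 had an unadjusted p under 0.05 in females, against 10.5% of all genes, Gstp3 at -0.72 (SE 0.24, adjusted p = 0.2843) and Gstm7 at -0.42 (SE 0.18, adjusted p = 0.4511). On chow 3 were called higher in females (Gstp3, Gstm5 and Gstm7) and 2 lower (Gstp-ps and Gstk1), against 10.4% of all genes in both directions. Gstp3, a pi gene near Gstp1 on chromosome 19, took the opposite direction to it. It had 60.2 ± 3.6 CPM in female chow and 12.4 ± 1.3 CPM in male chow livers (log2 fold change 2.28, SE 0.25, adjusted p = 0.0001207, edgeR). With statin it had 36.5 ± 10.4 CPM in females and 15.8 ± 5.0 CPM in males, and was still called higher in females (log2 fold change 1.21, SE 0.24, adjusted p = 0.011, edgeR).

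Gstp-ps, the pseudogene that shares stretches with Gstp1, was lower in females on chow at 1.91 ± 0.22 against 5.86 ± 0.90 CPM (log2 fold change -1.62, SE 0.23, adjusted p = 0.0008397, edgeR). Its reads cannot be told apart from those of Gstp1 where the sequence is shared. Mgst3, a microsomal transferase, was called higher in females on statin (log2 fold change 1.16, SE 0.29, adjusted p = 0.0319, edgeR). Gsta1, Gm10639, Gstm2-ps1, Gstp2, Gstt4, Gsto2, Mgst2 and Ptges did not pass the filter on low values. Gsta5, Gsta13 and Gm3776 were not found under these names among the genes of the deposited values, so no level is given for them.

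The steps around the transferases were counted from lists chosen by pathway. None of the genes below was called with statin in either sex or in the interaction (0 by edgeR and by limma-voom in each list). DESeq2 called 5 of them with statin in females (Lap3, Maff, Mafk, Nr1i3 and Cyp2c54), none in males and Cyp2c54 in the interaction. Of 17 tested genes for glutathione synthesis and recycling, 3 had an unadjusted p under 0.05 in females, against 10.5% of all genes. All 3 were higher with statin: the synthetase Gss (log2 fold change 0.86, SE 0.28, adjusted p = 0.2706), Oplah, which recycles oxoproline (0.65, SE 0.20, adjusted p = 0.241), and Gclm (0.37, SE 0.17, adjusted p = 0.4664). Of the 17, 11 had a positive log2 fold change and 6 a negative one. Every female statin liver was above every chow liver for 1, Oplah. Every one was below for 2, Gsr (-0.295, SE 0.149, adjusted p = 0.538) and Txnrd1 (-0.196, SE 0.136, adjusted p = 0.7264), and 12% of all genes had groups that did not overlap. On chow Gss was lower in females, 28.5 ± 9.2 against 59.7 ± 6.2 CPM (log2 fold change -1.07, SE 0.28, adjusted p = 0.0296), and Ggct was higher (0.85, SE 0.19, adjusted p = 0.0137). On statin the peroxidase Gpx3 was higher in females (1.33, SE 0.34, adjusted p = 0.0367). All these values are from edgeR.

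Of 17 tested genes for the export of conjugates and their conversion to mercapturates, 2 were higher and 4 lower in females on chow, against 5.96% and 4.49% of all genes. The transporter Abcc4 was higher (log2 fold change 1.75, SE 0.28, adjusted p = 0.0024, edgeR), as was Ggt6 (0.49, SE 0.14, adjusted p = 0.0386). The acetyltransferase Nat8 was lower (-4.86, SE 0.39, adjusted p = 7.41e-06), as were the transporter Abcg2 (-0.89, SE 0.15, adjusted p = 0.00288) and Nat8f2 (-1.06, SE 0.20, adjusted p = 0.00531). Nat8 had 0.366 ± 0.28 CPM in female chow livers and 10.8 ± 2.0 CPM in male ones. It passed the filter on low values through the male livers alone. With statin in females 3 of the 17 were higher and 2 lower at an unadjusted p under 0.05, against 10.5% of all genes in both directions, led by Nat8f2 (0.63, SE 0.20, adjusted p = 0.2503) and Lap3 (-0.43, SE 0.12, adjusted p = 0.1955, edgeR).

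Of 19 regulators tested, 3 were higher and 1 lower in females on chow, against 5.96% and 4.49% of all genes. Cux2, a factor known for its expression in female liver, was higher (log2 fold change 6.36, SE 0.82, adjusted p = 0.0004556, edgeR), as were the small Maf partners of Nrf2, Maff (1.26, SE 0.21, adjusted p = 0.00244) and Mafk (0.78, SE 0.18, adjusted p = 0.0165), and the growth hormone receptor Ghr was lower (-0.58, SE 0.13, adjusted p = 0.0142). The level of Cux2 was 40.4 ± 23.4 CPM in female chow livers and 0.487 ± 0.12 CPM in male ones, below the filter's 1 CPM. With statin in females Nr1i3, which encodes CAR, had 295 ± 147 against 128 ± 24.2 CPM (1.21, SE 0.32, adjusted p = 0.1766) and Mafk 16.3 ± 4.4 against 25.8 ± 1.2 CPM (-0.66, SE 0.18, adjusted p = 0.1917). In males Cux2 was the only regulator at an unadjusted p under 0.05 against 1.96% of all genes, at 2.02 ± 2.16 CPM with statin and 0.487 ± 0.12 CPM on chow (2.04, SE 0.79, adjusted p = 0.9998, edgeR).

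Of 26 tested targets of Nrf2 and CAR, 6 had an unadjusted p under 0.05 in females, against 10.5% of all genes. All 6 were higher with statin, led by Cyp2c54 (log2 fold change 1.70, SE 0.34, adjusted p = 0.0968, edgeR). The others were Cyp2c37, Cyp2c50, Cyp2a5, Ugt2b34 and Gclm. Of the 26, 19 had a positive log2 fold change in females and 7 a negative one. The 7 were Hmox1 (-0.23), Cyp2b10 (-0.21), Txnrd1 (-0.20), Ugdh (-0.17), Srxn1 (-0.16), Ces2a (-0.02) and Gclc (-0.01). In males none of the 26 had an unadjusted p under 0.05. On chow 4 of the targets were called higher in females and 5 lower, against 5.96% and 4.49% of all genes. The widest were the cytochromes Cyp2b13 (9.20, SE 0.73, adjusted p = 7.52e-06) and Cyp2a4 (9.01, SE 0.29, adjusted p = 2.93e-09) and, lower, Cyp2c54 (-3.34, SE 0.37, adjusted p = 0.0001223, edgeR). Cyp2b13 had 73.9 ± 34.8 CPM in female chow livers and 0.122 ± 0.026 CPM in male ones, near the lowest level told from 0. It passed the filter on low values through the female livers alone.

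Promoter windows of 300 bases around the start site were taken from RefSeq on GRCm38.p6 and found for 9 of the 10 transferases (13 windows); Gsta4 had no entry. They were searched on both strands for the antioxidant response element core TGACNNNGC, which 12.4% of 32851 windows held, and the STAT5 motif TTCNNNGAA, which 8.3% held. Among the members Gsta3 had the first (TGACATTGC, beginning 121 bases before the start site) and Gstm6, in 1 of its 3 windows, the second (TTCCACGAA, beginning 128 bases before it). The windows of the other 7 held neither motif.

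For 9 of the transferases the genes with the most similar profile were found over the 12 livers, as the root mean square difference between log2 levels after each gene was centred on its own mean. The nearest to Gstm3 was Acss2, an acetyl-CoA synthetase, at 0.26 where the root mean square of Gstm3 itself was 0.99. Acss2 had group means of 1400, 634, 264 and 518 CPM in female livers on chow and on statin and male livers on chow and on statin, and the next nearest were Klk1b4 (0.32) and Me1, the malic enzyme (0.33). The nearest to Gstm2 was Rdh16, a retinol dehydrogenase, at 0.13 against 0.66 for Gstm2 itself. The nearest to Gstp1 was Slc15a5 at 0.30 against 1.05, and to Gsta3 it was Nars2 at 0.10 against 0.39. For Gstm1, Gstm6, Gsta2, Gsta4 and Gstt1 they were Tinagl1 (0.13), Rmdn2 (0.21), Cyp4v3 (0.25), Paics (0.13) and Commd4 (0.08).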

How the data were processed

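The labels describe strand-specific poly(A) libraries; STAR 2.4.1a, HTSeq, edgeR 3.28.1 and GRCm38 are named in the submitters' processing notes. The authors deposited CPM values for all genes and a filtered table, described as TMM-normalized, that holds raw counts: its values were whole, 100% of the CPM values came out as whole reads (tolerance 0.01), and 0 values differed between the tables. Counts were fitted with edgeR 4.0.16 (quasi-likelihood, TMM, 4 groups of 3 livers in 1 fit, no covariate, two-sided, Benjamini-Hochberg over 11968 genes; R 4.3.3). Standard errors were taken as |log2 fold change| over the root of the F statistic. Symbols, positions and sequences are from GENCODE vM21. Alternatives were DESeq2 1.42.0, limma 3.58.1 (voom, and log2(CPM + 1 or 0.1)), other scalings and filters, the 6 livers compared, a transcript length correction, the replicate number as a block, and leaving out each liver. The 10 members and the gene lists were chosen with earlier results of these data known, so no list was tested. Genes were named by rule (all members; genes called, or the few with the smallest p, in each list); not every gene under the rule is given. On simulated counts with 200 of 11968 genes changed in the female comparison, edgeR recovered 123 changed by log2 1 (4 false calls) and 194 changed by log2 2 (15 false calls). The simulation gave all 4 groups the same spread for each gene. In the data the median SD over all genes was 19.5% of the mean in female statin livers and 11.9% in female chow livers. The recovery at that unequal spread was not simulated. The labels give each liver its own code without saying in words that each was a separate mouse; if not, p-values measure technical spread. The depth was 46066381 to 60419223 deposited counts per liver and bears on counting error only; the study's methods state a lower average number of reads.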

Additional observations from a re-analysis of the deposited data

Results flagged for a closer look

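Gstm3 moved in opposite directions with statin in the sexes: the log2 fold change was -0.99 in females, where every statin liver was below every chow liver, and 1.04 in males, where every statin liver was above every chow liver. Neither change passed the threshold over all genes in edgeR (adjusted p = 0.3918 and 0.9998). The difference itself was tested as the interaction of sex and statin (-2.03, SE 0.56, unadjusted p = 0.00355, adjusted p = 0.3192, edgeR), and over the alternatives its adjusted p ran from 0.0102 to 0.7085.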

How the results depend on the processing

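In females and in males the count of members called stayed at 0 in every alternative and with each liver left out. For the interaction, DESeq2 and edgeR with no filter each called 1 member, Gstm3, against 0 in the reported fit, and the count was 0 with each liver left out. Between the sexes on chow the count ran from 3 to 7 as livers were left out, against 6, and on statin from 1 to 2, against 2; with a mean of at least 10 CPM required it was 1 on statin, since Gsta2 is not tested there, and with the length correction 3 (Gsta3 gained). On chow 8 members were called with only the 6 livers compared (Gstm1 and Gstm6 gained), 7 with DESeq2, limma-voom, both limma fits on log2 CPM and no filter (Gsta2 gained), and 5 with library size alone (Gsta4 lost) or the stricter filter (Gsta3 lost). With the replicate block 4 members were called on chow (Gstm2, Gstm3, Gstm4 and Gstp1), 2 on statin and 0 in the other comparisons. The labels do not say what same-numbered livers share beyond the number. Their mean correlation of deviations was -0.0916, against 0.0479 for other pairs, and single pairs ran from -0.697 to 0.718. The slope of the centred log2 level per doubling of transcript length ran from -0.173 in female statin replicate 1 to 0.18 in male statin replicate 1. The source of these differences was not tested.

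Of 1135 fold changes of members under alternatives, 1072 kept their direction and side of the threshold, 12 gained and 23 lost a call, and 28 changed sign, all of estimates that were not called. Sign changes with livers left out fall in these ranges: with statin in females, Gsta2 -0.70 to 0.30; in males, Gstm1 -0.023 to 0.14, Gstm4 -0.004 to 0.30, Gsta2 -0.16 to 0.18 and Gsta3 -0.079 to 0.13; in the interaction, Gsta2 -0.72 to 0.28 and Gstt1 -0.082 to 0.26; between the sexes on chow, Gstt1 -0.036 to 0.12; and on statin, Gstm1 -0.24 to 0.23, Gstm3 -0.088 to 0.84, Gstm4 -0.11 to 0.38 and Gstt1 -0.057 to 0.28. Others are Gsta2 in males with limma-voom (-0.011) and limma on log2(CPM + 1) (-0.004) or log2(CPM + 0.1) (-0.007), Gsta3 in males with the replicate block (-0.001), Gstt1 on chow with library size alone (-0.011) and the length correction (-0.005), and Gstm1 on statin with the stricter filter (0.041). The cause was not tested.

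Over all genes DESeq2 called 270 in females, 4 in males, 122 in the interaction, 1946 between the sexes on chow and 1284 on statin, against 12, 0, 0, 1250 and 751 in edgeR. With 1 liver left out the edgeR counts ran from 0 to 75 in females, 0 to 14 in the interaction, 635 to 1586 on chow and 378 to 743 on statin, and stayed at 0 in males; the shares of all genes given as background move with them. With no filter the counts were 148, 0, 103, 1511 and 1021; with the stricter filter, 5, 0, 0, 771 and 357. With only the 6 livers compared they were 0 in females and 0 in males, and 2151 and 292 between the sexes. The length correction gave 21 in females and the block 5.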
